A study of Mus musculus with 28 samples.

Results

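The genes described here are 10 that encode proteins on the surface of hepatic lipid droplets, or the lipases that break down the stored lipid: Plin2, Plin5, Plin4, Cideb, Cidec, Hsd17b13, G0s2, Pnpla2, Lipe and Mgll. They were chosen by gene symbol, each matched 1 row of the count table, and all 10 were among the 21583 expressed genes of the 49585 features counted. Liver RNA was sequenced from 28 C57BL/6JOlaHsd mice aged 5 to 7 months, and the study asked how overexpression of the deacylase SIRT6 alters hepatic metabolism. The 4 groups of 7 mice were WT and SIRT6-tg males and WT and SIRT6-tg females, where WT is wild type and SIRT6-tg carries a Sirt6 transgene expressed in the whole body, not in the liver alone. WT mice were littermates of the transgenic mice, all mice ate standard chow, and the study's text gives a 4 h fast before the liver was taken. All SIRT6-tg mice came from 1 transgenic line, backcrossed to this strain, so the transgene and its insertion cannot be told apart.

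A lipid droplet is a core of triglyceride and cholesteryl ester under a phospholipid monolayer. Perilipins coat that surface and set how much of it lipases can reach, CIDE proteins sit where droplets touch and pass lipid from smaller to larger ones, and HSD17B13 is a liver enzyme that binds droplets. Triglyceride is cut in sequence: adipose triglyceride lipase (ATGL, encoded by Pnpla2) takes off the first fatty acid, hormone-sensitive lipase (HSL, encoded by Lipe) the next, and monoacylglycerol lipase (MGL, encoded by Mgll) the last, which leaves glycerol. G0S2 inhibits ATGL. Several of these genes are known targets of PPARα, the receptor that responds to fatty acids in the fasted liver.

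Deposited counts summed to between 18758863 and 35393069 per library. Sirt6 itself averaged 2.73 CPM (reads per 1000000 counted, scaled by the trimmed mean of M-values, TMM) in male WT and 281 CPM in male SIRT6-tg, and 2.88 and 30.2 CPM in the female groups, and in each sex every SIRT6-tg library lay above every WT library. The 12 hepatocyte markers summed to between 114700 and 222400 CPM, and the 7 expressed adipocyte markers of 8 listed to between 6.16 and 46.3 CPM, with Plin1 and Retn at or near 0 in most libraries. Male WT replicate 6 and female WT replicate 1 stood apart for several members. The members passing between male genotypes are given with and without the male library, and the G0s2 values with and without each. In bulk liver, fewer cells of a type and less RNA per cell cannot be told apart. SIRT6-tg males had more Sirt6 than SIRT6-tg females, so sex and transgene level cannot be told apart in any difference between their genotype effects.

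Per kilobase of merged exons, the scale on which levels of different genes can be compared, the members spread widely. Hsd17b13 averaged 204 CPM per kilobase (SD 41.6, n = 28) and Plin2, the main perilipin of liver, 200.0 (SD 63.3). These leading members were not separated, since Hsd17b13 was the higher in 16 of 28 libraries. G0s2 followed at 157 (SD 109), below Plin2 in 22 libraries. Mgll averaged 42.1 (SD 13.7), Pnpla2 32.1 (SD 3.74) and Cideb 27.3 (SD 3.53), with Mgll above Pnpla2 in 20 libraries and Pnpla2 above Cideb in 21. Plin5 stood at 17.2 (SD 5.57), below Cideb in 27 libraries. The place of Cideb is uncertain, since most of its exon length is shared with a gene on the opposite strand, Nop9. The genes best known from adipose tissue came last. Cidec averaged 2.58 (SD 1.18) and Lipe 2.38 (SD 0.30), which changed places between libraries, with Cidec higher in 12, and Plin4 averaged 1.10 (SD 0.56), below Lipe in all 28.

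**Figure D1:**
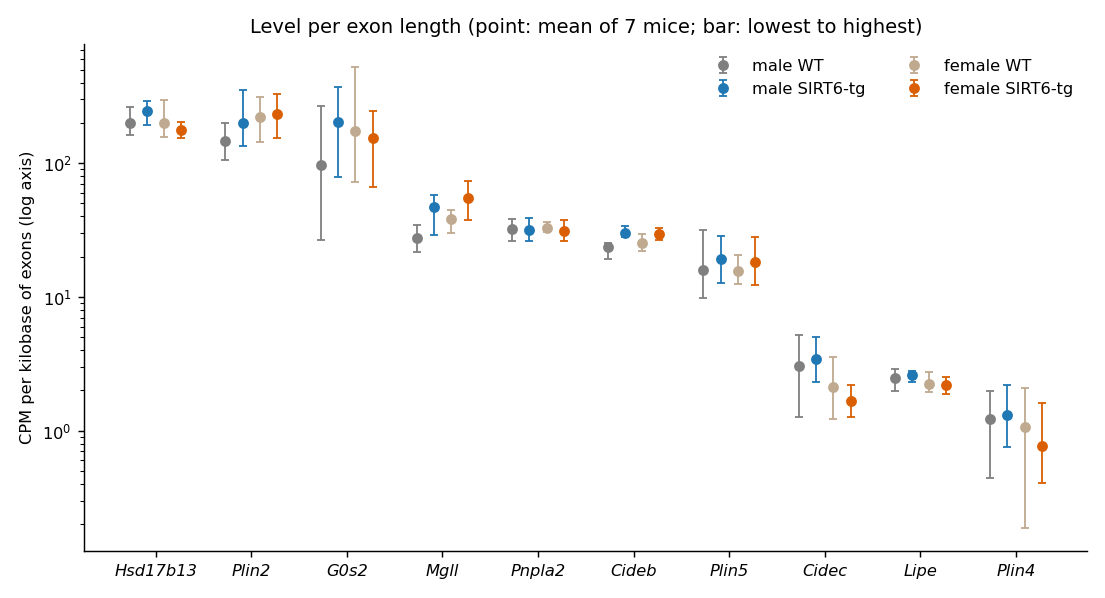
Level of each gene in CPM per kilobase of exons on a log axis, by group (point, mean of 7 mice; bar, lowest to highest mouse). Hsd17b13, Plin2 and G0s2 lie highest, between 96.3 and 244 in the group means, and Plin4 lowest, between 0.77 and 1.31.

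In males, the last lipase of the pathway and 1 CIDE gene were higher in SIRT6-tg liver. Mgll rose from 141 to 238 CPM and Cideb from 35.1 to 45.0 CPM, and these 2 of the 10 members passed an adjusted p-value of 0.05, both higher, where 20.7% of all genes tested passed in either direction and 9.68% passed as higher. The members' share of calls was thus near that of all genes. Of the 10 log2 fold changes 9 were positive, with a median of 0.29 against 0.06 over all genes. Unadjusted p-values were under 0.05 for 5 members, which adds Plin2, Hsd17b13 and G0s2 to the first pair, and for 7027 of all 21583 genes. In females 0 of 10 passed with edgeR and 0 with DESeq2, where 6 genes or 0.0278% of all tested passed, and the members' median was -0.05. Mgll and Cideb were the 2 female members with an unadjusted p-value under 0.05, beside 1212 of all genes. The difference between the male and female effects passed for 0 members with edgeR and 0 with DESeq2, against 5.05% of all genes, and Hsd17b13 was the 1 member with an unadjusted p-value under 0.05, beside 4055 of all genes.

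**Figure D2:**
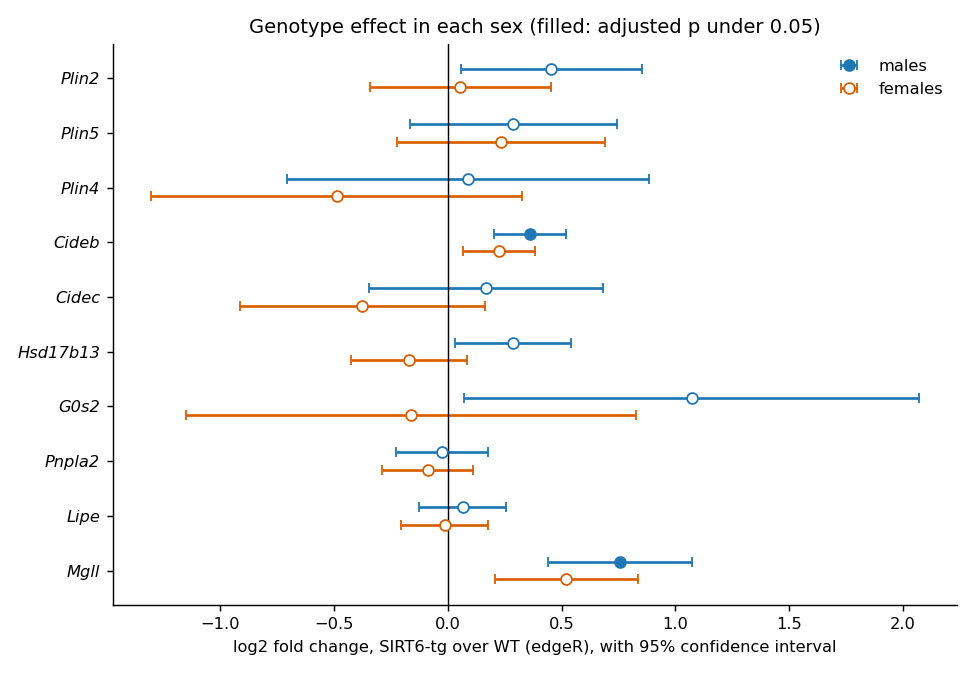
Log2 fold change of SIRT6-tg over WT from edgeR with its 95% confidence interval, for males (blue) and females (orange); filled points have an adjusted p-value under 0.05. Only Mgll (0.76) and Cideb (0.36) in males are filled, and with libraries scaled on hepatocyte markers Cideb falls to -0.02.

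How far the male values lie above 0 depended on the scaling of the libraries. TMM factors were 1.06 to 1.17 in male WT and 0.821 to 0.993 in male SIRT6-tg, and under TMM 46.8% of the genes called between male genotypes were higher, against 35.7% with DESeq2's size factors (RLE), 26.2% with upper-quartile factors, 4.89% with library size alone and 2.52% with libraries scaled on the hepatocyte markers. These scalings moved the median of all genes to 0.01, -0.02, -0.22 and -0.31. With library size alone the members' median was -0.00, and with hepatocyte markers -0.09, in each case above the median of all genes. Mgll passed as higher under every scaling, with log2 fold changes from 0.38 to 0.76. Cideb passed under TMM, RLE and upper-quartile factors but had a log2 fold change of 0.08 with library size alone and -0.02 relative to hepatocyte markers, where Pnpla2 passed as lower instead, at -0.30 and -0.39. In the same libraries all 10 macrophage, all 8 T cell and 7 of 8 stellate cell markers were lower in male SIRT6-tg, against 11% of all genes, and 6 of 12 hepatocyte markers were higher. Summed macrophage markers ran from 445 to 1446 CPM in male WT and from 374 to 635 CPM in male SIRT6-tg, and summed hepatocyte markers from 114700 to 151200 and from 139600 to 193500 CPM. The part of these cell type differences in the members' values was not tested beyond the scaling on hepatocyte markers.

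**Figure D3:**
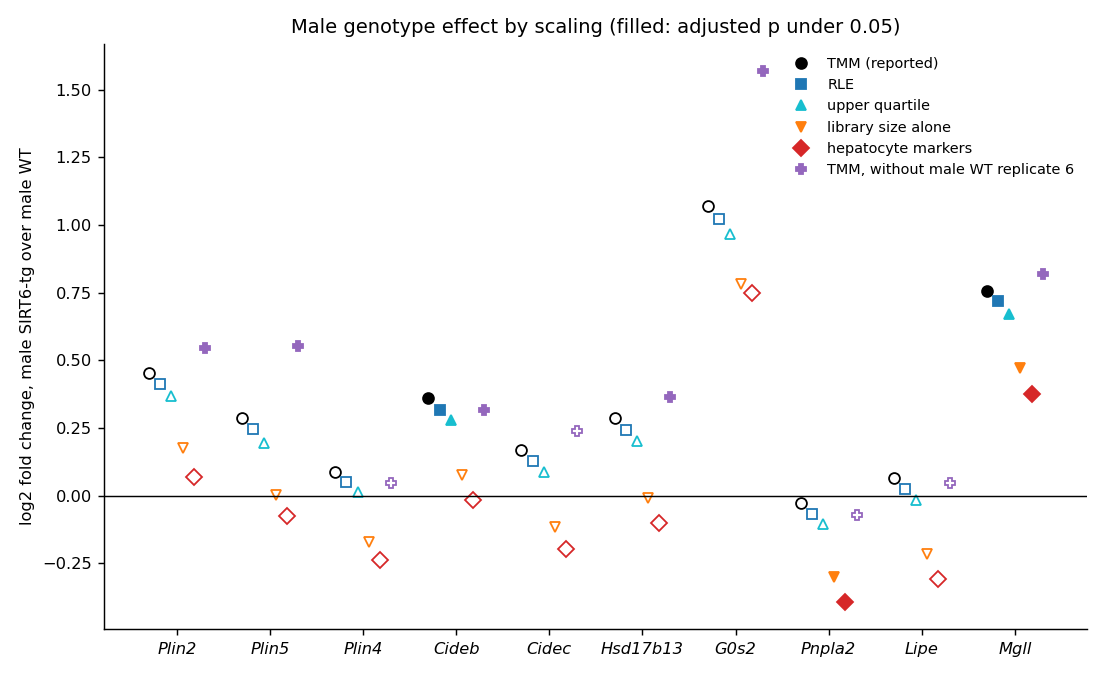
Log2 fold change of male SIRT6-tg over male WT for each member under 5 scalings and with 1 library left out; filled symbols have an adjusted p-value under 0.05. Mgll is filled throughout, Cideb only under TMM, RLE and upper-quartile scaling, and Pnpla2 (lower) only with library size alone or hepatocyte markers; 6 members are filled without male WT replicate 6.

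The number of members that passed rested on 1 male WT mouse. Male WT replicate 6 was the highest of its group for Plin2, Plin5, Hsd17b13, G0s2 and Mgll, and the lowest for Cideb and Pnpla2. Without it 6 of 10 members passed under TMM, all higher. Of all 21583 genes tested, the number passing went from 4467, of which 46.8% were higher, to 4811, of which 50.8% were higher. The log2 fold changes were then 0.55 for Plin2 (adjusted p = 0.0493, edgeR), 0.55 for Plin5 (adjusted p = 0.0367), 0.36 for Hsd17b13 (adjusted p = 0.0337) and 1.57 for G0s2 (adjusted p = 0.0190), beside 0.32 for Cideb and 0.82 for Mgll. Removing the WT mouse that was highest for Plin2, Plin5, Hsd17b13 and G0s2 raises their log2 fold changes by construction. Their calls without that mouse thus carry no weight as tests, and are given under TMM only. Leaving out any other of the 14 male libraries left the count at 2, always Cideb and Mgll. The members' median went from 0.29 with all mice to 0.34 without male WT replicate 6. It went to 0.20 without male SIRT6-tg replicate 6, the highest of its group for Plin2, Plin5 and Mgll.

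Plin2 (chr4:86648386-86670060, GRCm38, minus strand) encodes perilipin 2, which covers droplets in most cells. Its values ran from 369 through a median of 476 to 699 CPM in male WT, and from 472 through 665 to 1228 CPM in male SIRT6-tg. In females they ran from 508 through 786 to 1106 CPM in WT, and from 537 through 757 to 1162 CPM in SIRT6-tg. The genotypes overlapped in both sexes, and the male SIRT6-tg mouse at 1228 CPM, replicate 6, stood well above the next at 756. The log2 fold change was 0.45 in males (SE 0.20, 95% interval 0.06 to 0.85, adjusted p = 0.0992) and 0.06 in females (SE 0.19, interval -0.34 to 0.45, adjusted p = 1.00), neither of which passed. Between WT mice the males were lower, 512 ± 131 against 783 ± 177 CPM (SD, n = 7), a log2 difference of -0.61 (SE 0.20, adjusted p = 0.0363), with 4 of 7 males below every female.

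Plin5 (chr17:56111601-56117596, minus strand) encodes the perilipin that ties droplets to mitochondria in tissues that burn fat. It ran from 20.4 through 29.3 to 66.4 CPM in male WT and from 26.6 through 37.3 to 60.1 CPM in male SIRT6-tg. The female groups ran from 26.1 through 30.6 to 43.2 CPM and from 25.4 through 30.8 to 59.0 CPM. Male WT replicate 6, at 66.4 CPM, was the highest of all 28 libraries, and the groups overlapped. The log2 fold changes of 0.29 in males (SE 0.22, adjusted p = 0.404) and 0.23 in females (SE 0.22, adjusted p = 1.00) did not pass.

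Plin4 (chr17:56100591-56109803, minus strand), a perilipin abundant in adipose tissue, is the neighbour of Plin5, with 1797 bases between the genes. Counts were low, from 26 to 460 per library, and values ran from 2.57 through 7.08 to 11.4 CPM in male WT and from 4.35 through 7.69 to 12.6 CPM in male SIRT6-tg. In females they ran from 1.09 through 5.65 to 12.0 CPM in WT and from 2.36 through 3.91 to 9.25 CPM in SIRT6-tg. The spread within groups covered the differences, 0.09 in males (SE 0.39) and -0.49 in females (SE 0.40) on the log2 scale, and with library size alone the male value turned to -0.17.

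Cideb (chr14:55754050-55758458, minus strand) encodes the CIDE protein of hepatocytes, which also takes part in loading lipid onto VLDL particles. It was the steadiest member, with a within-group SD of 0.12 on the log2 scale, lower than all but 5.09% of the 11272 genes with a mean of at least 50 normalised counts. Male WT ran from 28.6 through 36.1 to 37.6 CPM and male SIRT6-tg from 42.1 through 44.4 to 50.1 CPM. The male genotypes did not overlap, which holds for 2.6% of all genes in this direction. The log2 fold change was 0.36 (SE 0.08, 95% interval 0.20 to 0.52, adjusted p = 0.000957), and it was -0.02 with libraries scaled on hepatocyte markers. Values ran in female WT from 32.7 through 38.7 to 43.9 CPM and in female SIRT6-tg from 39.9 through 44.6 to 48.6 CPM, a log2 fold change of 0.22 (SE 0.08, unadjusted p = 0.00692, adjusted p = 0.538, edgeR), with 4 of 7 SIRT6-tg above every WT. The exons of Cideb share 1136 bases, 76.3% of their length, with Nop9 on the opposite strand, so the Cideb counts and the level per kilobase are uncertain without a stated strand setting. Nop9 averaged 20.5 CPM in male WT and 23.5 CPM in male SIRT6-tg, a log2 fold change of 0.20 (adjusted p = 0.0970).

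Cidec (chr6:113424634-113435760, minus strand) encodes the CIDE protein that drives large droplets in adipocytes and fatty liver. Male WT ran from 2.37 through 5.57 to 9.63 CPM and male SIRT6-tg from 4.27 through 5.76 to 9.30 CPM. Female WT ran from 2.27 through 3.96 to 6.57 CPM and female SIRT6-tg from 2.37 through 2.87 to 4.10 CPM. The genotypes overlapped in each sex, with log2 fold changes of 0.17 in males (SE 0.25), which turned to -0.12 with library size alone, and -0.38 in females (SE 0.26). Among SIRT6-tg mice all 7 males lay above all 7 females, which holds for 3.58% of genes in this direction, and the log2 difference of 1.06 passed (SE 0.26, adjusted p = 0.00373). Among WT mice the same difference was 0.52 (SE 0.26, adjusted p = 0.203) and the sexes overlapped.

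Hsd17b13 (chr5:103955440-103977410, minus strand) ran from 352 through 422 to 564 CPM in male WT and from 416 through 510 to 629 CPM in male SIRT6-tg. Female WT ran from 339 through 397 to 644 CPM and female SIRT6-tg from 330.0 through 390 to 441 CPM. The highest value of each WT group belonged to a library that stands apart, male replicate 6 and female replicate 1. The male log2 fold change was 0.29 (SE 0.13, 95% interval 0.03 to 0.54, adjusted p = 0.106) and the female one -0.17 (SE 0.13, interval -0.43 to 0.08, adjusted p = 1.00). Their difference, 0.46 (SE 0.18, unadjusted p = 0.0147), did not pass over all genes (adjusted p = 0.140, edgeR), and it was -0.04 relative to hepatocyte markers. The female value and this difference include female WT replicate 1, at 644 CPM with the next mouse at 457 CPM. Without that mouse the female value was still negative and the difference still positive, but their sizes are not given here. In SIRT6-tg mice males were higher, 525 ± 73.2 against 379 ± 39.5 CPM (SD, n = 7), a log2 difference of 0.47 (SE 0.13, adjusted p = 0.00686), with 6 of 7 males above every female. In WT mice the sexes differed by 0.01.

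G0s2 (chr1:193272161-193273217, minus strand), the inhibitor of ATGL, varied most between mice of a group. Its within-group SD of 0.91 on the log2 scale exceeded that of 99.1% of the 11272 genes compared, whose median was 0.26. Male WT ran from 23.2 through 74.7 to 231 CPM and male SIRT6-tg from 68.8 through 200 to 321 CPM. Female WT ran from 63.2 through 87.6 to 456 CPM and female SIRT6-tg from 57.4 through 138 to 212 CPM. In each WT group 1 mouse lay far above the rest, male replicate 6 with the next at 84.6 CPM and female replicate 1 with the next at 153 CPM. Summed adipocyte markers were 22.0 CPM in that male library and 36.1 CPM in that female library, against 46.3 CPM in male WT replicate 3, where G0s2 was 84.6 CPM. Most of the first 2 sums came from 1 marker, Fabp4, at 19.6 CPM in that male library and 33.3 CPM in that female library. Adipoq was highest in male WT replicate 3, at 2.58 CPM. It was 0.20 CPM in female WT replicate 1, below the 0.45 CPM of female SIRT6-tg replicate 2. Whether adipocyte RNA had a part in the G0s2 values was not tested. The log2 fold change was 1.07 in males (SE 0.49, 95% interval 0.07 to 2.07, adjusted p = 0.124) and -0.16 in females (SE 0.48, interval -1.15 to 0.83, adjusted p = 1.00). Without the library that stands apart, the value was 1.57 in males (adjusted p = 0.0190, edgeR) and turned to 0.42 in females, which did not pass. Each of these libraries was set aside with its high G0s2 value known. Leaving out the highest WT mouse raises SIRT6-tg over WT by construction, so these values carry no weight as tests.

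Pnpla2 (chr7:141455198-141460743, plus strand), which encodes ATGL, had similar values in the 4 groups under TMM. Male WT ran from 79.4 through 98.1 to 116 CPM and male SIRT6-tg from 78.6 through 90.8 to 117 CPM. Values ran in female WT from 91.7 through 101 to 110 CPM and in female SIRT6-tg from 78.8 through 93.1 to 113 CPM. All groups overlapped, and the log2 fold changes were -0.03 in males (95% interval -0.23 to 0.17) and -0.09 in females (interval -0.29 to 0.11). In males this held under TMM, RLE and upper-quartile factors only, since the gene passed as lower with library size alone (-0.30, adjusted p = 0.0419) and with hepatocyte markers (-0.39, adjusted p = 0.0418, edgeR).

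Lipe (chr7:25379527-25398710, minus strand), which encodes HSL, ran from 11.6 through 14.7 to 17.2 CPM in male WT and from 13.6 through 15.6 to 16.5 CPM in male SIRT6-tg. Female WT ran from 11.4 through 13.1 to 16.1 CPM and female SIRT6-tg from 11.2 through 12.2 to 14.9 CPM. The genotypes overlapped, with log2 fold changes of 0.07 in males (95% interval -0.13 to 0.26), which turned to -0.22 with library size alone, and -0.01 in females (interval -0.21 to 0.18). The sexes differed by 0.25 in SIRT6-tg mice (adjusted p = 0.0552), just short of the threshold. The exons of Lipe share 15.6% of their length with the antisense gene 4732471J01Rik.

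Mgll (chr6:88724412-88828360, plus strand) passed between male genotypes under every alternative run. MGL releases glycerol from monoacylglycerol and also clears the endocannabinoid 2-arachidonoylglycerol. Male WT ran from 110.0 through 138 to 176 CPM and male SIRT6-tg from 148 through 256 to 292 CPM. In males 6 of 7 SIRT6-tg mice exceeded the whole WT range, and replicate 2, at 148 CPM, lay within the WT range. The means were 141 ± 25.8 and 238 ± 50.4 CPM (SD, n = 7), a log2 fold change of 0.76 (SE 0.15, 95% interval 0.44 to 1.07, adjusted p = 0.000543). Female WT ran from 152 through 189 to 228 CPM and female SIRT6-tg from 192 through 289 to 377 CPM. In females 5 of 7 SIRT6-tg mice exceeded the whole WT range, and the log2 fold change was 0.52 (SE 0.15, interval 0.21 to 0.84, unadjusted p = 0.00195, adjusted p = 0.397, edgeR). The effects of the sexes differed by 0.24 (SE 0.22, interval -0.21 to 0.68, adjusted p = 0.612), a sign that turned to -0.06 with library size alone. The antisense gene Gm26588 shares 3.29% of the Mgll exon length, and it averaged 3.92 CPM in male WT and 6.29 CPM in male SIRT6-tg (adjusted p = 0.00621).

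**Figure D4:**
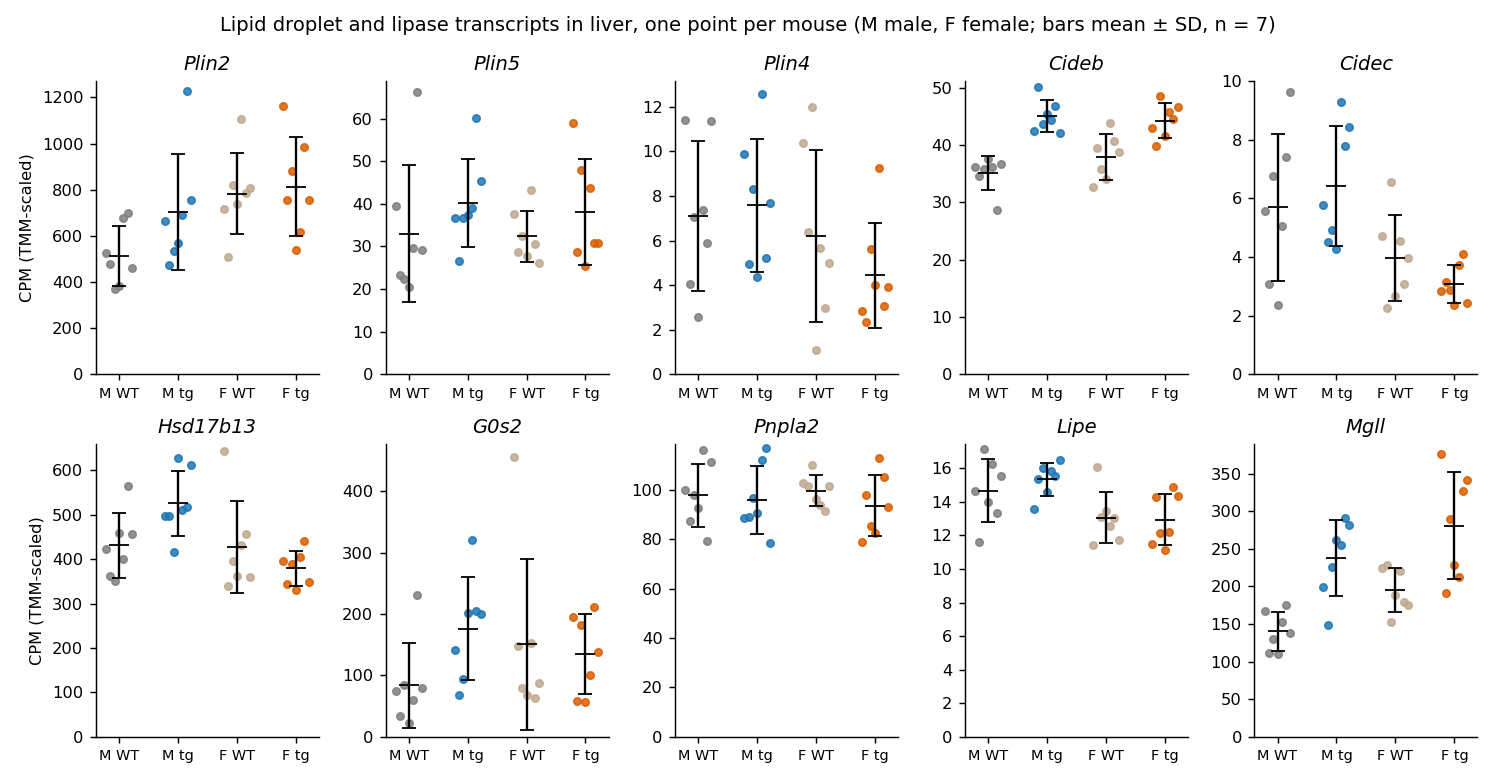
TMM-scaled CPM of each member in every mouse of the 4 groups (points), with the group mean and SD (bars, n = 7 each; M, male; F, female; tg, SIRT6-tg). The male Cideb points of the genotypes do not overlap, 6 of 7 male SIRT6-tg mice exceed every male WT mouse for Mgll, and single high mice stand out for G0s2, Plin5 and Plin2.

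Comparing males with females within a genotype shares its groups with the genotype comparisons, so the values stand side by side and carry no separate weight. In WT mice 2 of 10 members passed, Plin2 and Mgll, both lower in males, where 12.4% of all genes passed in either direction and 5.71% as lower. Mgll averaged 141 CPM in WT males and 196 CPM in WT females, a log2 difference of -0.48 (SE 0.15, adjusted p = 0.0377), with 5 of 7 males below every female. Both calls were fragile: the count fell to 0 without male WT replicate 2, 3, 4 or 7 or female WT replicate 5, and to 1 without male WT replicate 1 or female WT replicate 1, 2, 3, 6 or 7. With library size alone the 2 members that passed were Cidec and Lipe, both higher in males. In SIRT6-tg mice 2 of 10 members passed, Cidec and Hsd17b13, both higher in males, where 23.1% of all genes passed in either direction and 12.9% as higher. Relative to hepatocyte markers Cidec and Mgll passed instead, Mgll as lower.

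Some members varied together from mouse to mouse within the groups. After each group's mean was subtracted, log2 CPM of G0s2 and Mgll had a Pearson r of 0.77 (Spearman rho 0.79) over the 28 libraries, and r lay between 0.72 and 0.86 in each of the 4 groups. Plin2 and Plin5 had an r of 0.71, between 0.57 and 0.94 in the groups. Plin5 had an r of 0.68 with G0s2 and 0.64 with Mgll. Plin2 had an r of 0.57 with Mgll and 0.44 with G0s2, but in female WT these were -0.24 and -0.13. Plin4 and Cidec had an r of 0.61, Hsd17b13 and G0s2 of 0.60, Cidec and G0s2 of 0.55, and Plin5 and Hsd17b13 of 0.51. By contrast, over the 28 libraries Pnpla2, Lipe and Cideb had r between -0.28 and 0.18 with Plin2, Plin5, G0s2, Hsd17b13 and Mgll. Within groups some of these were larger and of opposite sign. Cideb had -0.76 with G0s2 and -0.81 with Plin5 in male WT, and 0.66 and 0.43 in female SIRT6-tg. Pnpla2 and Lipe had 0.42 with each other over the 28 libraries. Libraries share one scaling and their cell makeup, so these correlations are descriptions only. Summed hepatocyte markers had an r of 0.59 with Hsd17b13, 0.50 with Mgll, 0.48 with G0s2 and 0.46 with Plin2. The r was -0.03 with Pnpla2 and 0.01 with Cideb. Most of the hepatocyte sum was Alb, which averaged 81120 CPM in male WT and 130500 CPM in female WT. The median sums there were 128500 and 179400 CPM. Summed adipocyte markers had an r of 0.52 with G0s2 and -0.52 with Cideb, and between -0.18 and 0.33 with the other members. In male WT replicate 6 and female WT replicate 1, the highest of their groups for G0s2, most of that sum was Fabp4.

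**Figure D5:**
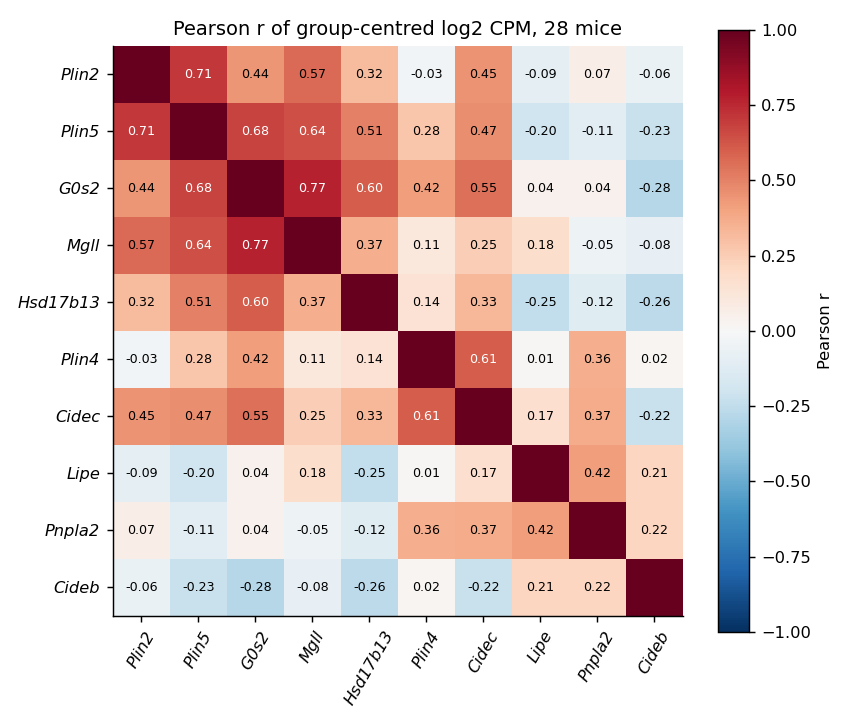
Pearson r between members of log2 CPM after subtracting group means, over 28 mice. Among Plin2, Plin5, G0s2 and Mgll r runs from 0.44 to 0.77, and Hsd17b13 and Cidec reach 0.60 and 0.55 with G0s2. Lipe, Pnpla2 and Cideb stay between -0.28 and 0.18 with Plin2, Plin5, G0s2, Hsd17b13 and Mgll, while Cidec and Pnpla2 have 0.37.

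Among 11271 other genes with a mean of at least 50 normalised counts, up to 2 are named for each member among the most like it on this measure. Mgll ran most closely with Stk16 (r = 0.86) and with Creb3l3 (r = 0.83), which encodes a liver transcription factor of the fasting response. Plin2 ran with Slc16a1 (r = 0.85), the monocarboxylate transporter MCT1, and Wrnip1 (r = 0.81). Plin5 ran with Arl4a (r = 0.88) and Pxmp4 (r = 0.81), a peroxisomal membrane protein. G0s2 ran with Emc8 (r = 0.85) and Mcrip2 (r = 0.84). Cideb ran with Hsd17b7 (r = 0.79), an enzyme of cholesterol synthesis, and Copb2 (r = 0.78), a coat protein of Golgi vesicles. Hsd17b13 ran with Defb1 (r = 0.79) and Chchd4 (r = 0.78), Pnpla2 with Kansl2 (r = 0.81) and Epn1 (r = 0.76), Lipe with Snx32 and Lrrc45 (r = 0.69 each), Cidec with Gm35986 (r = 0.68), and Plin4 with Col12a1 (r = 0.74) and Clip1 (r = 0.67).

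The stretches before the starts of Plin2, Plin5, G0s2 and Mgll, the members of the 4 highest r, are shown so that they can be set beside that pattern. They come from RefSeq (GRCm38.p6), which gave 14 windows for the 10 members, and are written 5′ to 3′ on the strand of the gene, upstream of the start site and of the Gencode gene, with bases in exons of other protein-coding genes left out. Capitals mark AGGTCA, the half-site of nuclear receptors such as PPARα, or CACGTG, the E-box, read on either strand.
Plin2, chr4:86670061-86670309, minus strand: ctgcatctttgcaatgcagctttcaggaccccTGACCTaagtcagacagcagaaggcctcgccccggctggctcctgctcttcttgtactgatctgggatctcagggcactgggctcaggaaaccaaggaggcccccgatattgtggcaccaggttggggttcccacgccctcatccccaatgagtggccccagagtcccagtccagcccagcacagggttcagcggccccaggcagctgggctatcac
Plin5, chr17:56117597-56117798, minus strand: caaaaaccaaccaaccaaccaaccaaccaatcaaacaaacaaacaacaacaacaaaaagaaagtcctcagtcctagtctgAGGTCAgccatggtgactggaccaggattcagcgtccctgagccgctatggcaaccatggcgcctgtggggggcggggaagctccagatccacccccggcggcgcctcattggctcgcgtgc
G0s2, chr1:193273218-193273337, minus strand: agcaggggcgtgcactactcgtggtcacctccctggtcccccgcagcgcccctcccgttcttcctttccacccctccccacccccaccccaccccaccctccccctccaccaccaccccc
Mgll, chr6:88724162-88724411, plus strand: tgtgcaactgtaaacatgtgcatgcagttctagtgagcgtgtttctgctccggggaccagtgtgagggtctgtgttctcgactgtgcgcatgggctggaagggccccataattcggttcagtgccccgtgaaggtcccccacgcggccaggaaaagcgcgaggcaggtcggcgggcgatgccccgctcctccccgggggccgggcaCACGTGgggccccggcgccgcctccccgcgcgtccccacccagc
In the 250 bases before the start site, AGGTCA was found in 3 of 14 member windows (Plin2, Plin5 and Hsd17b13). It was found in 14% of all 32851 windows of that length. Only Plin2 held 2 copies of that half-site in the same direction with 1 base between them, allowing up to 2 mismatches, as did 3.24% of all windows. CACGTG was found in 2 of 14 member windows, before Lipe and before Mgll, 44 bases upstream of the start, and in 6.02% of all windows. The whole Mgll stretch shown lies in an exon of the antisense gene Gm26588, which is not protein-coding and was not left out. The GC box GGGCGG was found in 7 of 14 member windows, from 6 members, and in 32.7% of all windows. CCAAT was found in 3 of 14 and in 33.8%, and TATAAA in 1 of 14, before Cideb, and in 12.4%. TGACGT, the core of the cAMP response element, was found in 0 of 14 and in 6.47%. None of the motifs searched was found before all 4 of the genes shown.

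Genes of 5 related lists were compared between male genotypes under TMM, where 9.68% of all genes passed as higher, 11% as lower and 20.7% in either direction. Among 16 other genes of droplet coats and assembly, 4 rose, 2 fell and 10 did not pass, with a median log2 fold change of 0.19 against 0.06 over all genes. Those higher included Fitm1, which helps package triglyceride into droplets (17.5 to 33.7 CPM, log2 fold change 0.94, SE 0.28), the droplet hydrolase Ldah (0.38, SE 0.09) and Hsd17b11 (0.32, SE 0.08). Cavin1, a caveolar coat gene, was lower (-0.62, SE 0.15). Plin1, the perilipin of adipocytes, passed as lower through male WT replicate 3 alone, which held 65 of its counts, and without that library its log2 fold change was -0.44 (adjusted p = 0.832, edgeR).

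Of 16 other neutral lipid hydrolases and cofactors, 7 rose, 1 fell and 8 did not pass, with a median of 0.29. Hepatic lipase, Lipc, went from 131 to 192 CPM in males (log2 fold change 0.55, SE 0.09, adjusted p = 3.14e-05, edgeR), and had a female value of 0.41 (SE 0.09, adjusted p = 0.0966). The carboxylesterase Ces3b went from 225 to 417 CPM in males (0.89, SE 0.16). Aadac, an arylacetamide deacetylase of the endoplasmic reticulum, rose by 0.49 in males (SE 0.09) against 0.01 in females. That difference passed under TMM (adjusted p = 0.0244, edgeR), and its value under other scalings is not given here. Lpl, lipoprotein lipase, which macrophages also express, was lower, 27.6 against 69.8 CPM (-1.34, SE 0.26).

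Of 15 genes of triglyceride synthesis 8 rose, 1 fell and 6 did not pass, with a median of 0.25. Agpat2 rose from 89.9 to 145 CPM (0.69, SE 0.12), the final acyltransferase Dgat2 by 0.48 (SE 0.11) and Acsl1 by 0.74 (SE 0.18), while Mogat2, at 1.21 CPM in male WT, fell by 1.79 (SE 0.40). Of 20 PPARα-responsive genes 9 rose, 0 fell and 11 did not pass, with a median of 0.43. Fabp1, the liver fatty acid-binding protein, went from 2729 to 4808 CPM (0.82, SE 0.14), and the peroxisomal thiolase Acaa1b from 452 to 839 CPM (0.89, SE 0.16). Of 15 regulators of lipolysis and of the members 4 rose and 0 fell: the glucagon receptor Gcgr (0.48, SE 0.11), Srebf1 (0.66, SE 0.15), Pparg (0.65, SE 0.16) and Mlxipl (0.43, SE 0.15). The genotype effect on Pparg differed between the sexes under TMM (adjusted p = 0.0324, edgeR), with -0.14 in females. In females 0 genes of these 5 lists passed with edgeR, 13 had an unadjusted p-value under 0.05, 1 (Lipc) passed with DESeq2, and the medians of the lists lay between 0.01 and 0.21. Most of the male calls turned on the scaling: relative to hepatocyte markers 0 genes rose and 4 fell for coat and assembly, 1 rose and 2 fell for hydrolases, 0 rose and 1 fell for synthesis, 2 rose and 2 fell for PPARα-responsive genes, and 0 rose and 1 fell for regulators, and the medians lay between -0.20 and 0.06.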

How the data were processed

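The authors aligned single-end reads of NEBNext Ultra libraries to mm10 (GRCm38) with STAR 2.5.0a, kept those that mapped uniquely and deposited raw HTSeq counts per Gencode vM12 gene, without normalization. The strand setting and mode of the counting are not given in the sources used here, and the kit does not mark strand, so reads over exons shared by genes on opposite strands are uncertain. Groups, sexes and replicate numbers were taken from the labels, and each library is a separate mouse. Within groups every pair of libraries differed by more than sampling noise (lowest chi-square per gene 13.25 over 84 pairs). Intervals are for the difference between groups, with an error estimated from the spread between mice, and do not give the range of single mice.

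Symbols and coordinates came from Gencode vM21 of the same build, which named 49326 of 49585 features. Genes with a mean of at least 0.5 normalised counts (21583) were tested in R 4.3.3 by quasi-likelihood with edgeR 4.0.16, with TMM factors, robust estimation, the 4 groups in 1 fit and Benjamini-Hochberg adjustment over all genes tested. DESeq2 1.42.0, the tool the authors used, served as an alternative. An adjusted p-value under 0.05 is called passing. Standard errors are the log2 fold change over the square root of F. Levels between genes were compared per kilobase of merged exons, and correlations used log2 CPM with a prior count of 2.

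The members, the gene lists and the marker lists were chosen with earlier results of these data known. Named genes are all members, Sirt6, up to 5 genes of a list (the 3 with the lowest adjusted p in each direction between male genotypes, and those passing in females or differing between the sexes) and the 2 genes most like each member. Of the genes this rule takes, 2 are not reported here. Mlxipl was named after its value was seen. Alternatives were RLE, upper-quartile, library-size and hepatocyte-marker scaling, 2 other filters, DESeq2, only the groups compared, a replicate block, and each library left out in turn. List counts without male WT replicate 3 or 6 were added after seeing the data.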

Additional observations from a re-analysis of the deposited data

Results flagged for a closer look

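In 6 of the 40 combinations of a member and a group, the mouse at 1 end lay further from the next than Dixon's 95% limit for 7 values. For independent, normally distributed values chance alone gives this in about 1 group in 20. The limit was applied to CPM, not to log2 CPM, and members varied together, so the 6 cannot be set against that rate. In male WT mice replicate 6 was apart for Plin5 (gap 0.586 of the range, 66.4 CPM against 39.5 in the next mouse), G0s2 (0.705, 231 against 84.6 CPM) and, at the low end, Cideb (0.664, 28.6 against 34.6 CPM). In female WT mice replicate 1 was apart for G0s2 (0.771, 456 against 153 CPM) and Hsd17b13 (0.612, 644 against 457 CPM). In male SIRT6-tg mice replicate 6 was apart for Plin2 (0.625, 1228 against 756 CPM).

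Under TMM the genotype effect differed between the sexes, by a test of the difference itself, for 3 named genes outside the members. Sirt6 averaged 281 CPM in male and 30.2 CPM in female SIRT6-tg mice, so sex and transgene level cannot be told apart in these differences. The Sirt6 effect was larger in males by 3.29 on the log2 scale (adjusted p = 6.96e-06, edgeR). That of Pparg was larger by 0.78 (adjusted p = 0.0324, edgeR) and that of Aadac by 0.48 (adjusted p = 0.0244, edgeR). Over all genes the median of this difference was 0.03 under TMM, -0.25 with library size alone and -0.44 with hepatocyte-marker scaling. Values of Pparg and Aadac under those scalings are not given here.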

How the results depend on the processing

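Between male genotypes 2 members passed, Cideb and Mgll, and the same genes passed under 6 of the other settings. With library size alone or hepatocyte-marker scaling the count was also 2, but the members were Mgll and, as lower, Pnpla2. With a library left out it ran from 2 to 6, the latter without male WT replicate 6. Male against female WT mice gave 2, and 1 with RLE factors or without a filter, 3 others (Cidec, Hsd17b13 and Lipe) with hepatocyte-marker scaling, and 0 to 2 with a library left out. In SIRT6-tg mice the comparison of the sexes gave 2, and 3 with filterByExpr, which added Lipe, and 2 to 3 with a library left out. In females and for the difference between the sexes, 0 members passed in every run. Over all genes, 6 passed between female genotypes with edgeR, 42 with DESeq2, 13 with hepatocyte-marker scaling and 2 with only those groups. The difference between the sexes took 1089 genes, 1863 with library size alone and 2725 with hepatocyte-marker scaling, and male against female WT 2669, 4212 and 5733.

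Same-numbered mice of the male groups deviated together with r from -0.34 to 0.43, and those of the female groups with r from -0.59 to 0.50, so the numbers were not taken as pairs. Among male genotypes a replicate block gave 3 members, adding Hsd17b13, and between the sexes of SIRT6-tg mice also 3, adding Plin4. The female value of G0s2 was 0.011 with the replicate block.

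Apart from Cideb in males, the log2 values whose sign turned belonged to members that did not pass. With hepatocyte-marker scaling the male values were -0.24 for Plin4, -0.077 for Plin5, -0.0175 for Cideb, -0.20 for Cidec, -0.10 for Hsd17b13 and -0.31 for Lipe. The female values were 0.024 for G0s2, 0.016 for Pnpla2 and 0.094 for Lipe, and the differences between the sexes were -0.041 for Plin2, -0.042 for Hsd17b13 and -0.26 for Mgll. With library size alone the male values were -0.17 for Plin4, -0.12 for Cidec, -0.0089 for Hsd17b13 and -0.22 for Lipe, and the difference between the sexes was -0.060 for Mgll. Over all 10 members, the difference between the sexes was positive for 10 under TMM and negative for 2 with upper-quartile factors, 5 with library size alone and 7 with hepatocyte-marker scaling, where the median was -0.15. The male value of Lipe was -0.015 with upper-quartile factors. With a library left out, male values ran from -0.088 to 0.22 for Plin4, -0.0020 to 0.31 for Cidec, -0.091 to 0.019 for Pnpla2 and -0.00083 to 0.093 for Lipe. Female values ran from -0.055 to 0.15 for Plin2, -0.31 to 0.42 for G0s2 and -0.053 to 0.037 for Lipe, and the WT sex difference of Hsd17b13 from -0.064 to 0.15. The cause of these changes was not tested. Without male WT replicate 3, the number of genes that rose was between 3 and 7 in each of the 5 pathway lists, and without replicate 6 between 4 and 8, against 4 to 9 with all mice. Precision differed between members: the 95% interval of the male effect ran from 0.07 to 2.07 for G0s2 and from -0.23 to 0.17 for Pnpla2.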
